A study of Caenorhabditis elegans with 4 samples.

Results

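Chromosome IV of Caenorhabditis elegans carries 2 broad domains that are known for their piRNA genes, and the NHR-2 peaks inside them are described here. A peak belonged to the left domain where its centre lay between positions 4500000 and 7000000 of IV, and to the right domain where it lay between 13500000 and 17200000, on the WormBase WS220 build. The domains hold 2.5 and 3.7 Mb, which is 14.3% and 21.2% of the chromosome up to its last deposited peak. The combined peak list of the series placed 44 peaks in the left domain and 44 in the right, 88 of its 309 peaks on IV and of 2299 in all. The replicate 1 list placed 709 and 1100 peaks there, of 5045 on IV and 29379 in all. The replicate 2 list placed 543 and 985 there, of 4196 on IV and 24151 in all.

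The peaks come from chromatin immunoprecipitation followed by sequencing (ChIP-seq) of 2 libraries of DNA collected with an anti-GFP antibody. For each there was an input library of unselected DNA, and the peak lists hold no input values. All 4 libraries, ChIP and input alike, came from embryos of strain OP99, a population of males and hermaphrodites grown at 20 °C. The material of all 4 was treated with 2% formaldehyde. Every group carried the unc119(ed3) mutation and the bombarded transgene wgIs99, which holds nhr-2 joined to a TY1, EGFP and FLAG tag and an unc119 rescue copy. Binding was therefore that of a tagged protein made from an added gene copy, and a strain without the tag was not analysed here. The labels do not state whether the replicates are separate cultures, and their spread may be technical only.

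The piRNAs of C. elegans, called 21U-RNAs, are short RNAs that bind the Piwi protein PRG-1 and silence foreign sequences in the germline. Most are transcribed one by one from small units on chromosome IV, each with its own upstream motif, and the units stand between and inside ordinary protein-coding genes. NHR-2 is a nuclear hormone receptor, a zinc-finger transcription factor of a large worm gene family, and its gene is active in the early embryo. In the RefSeq gene table of a later build, 14714 of 15363 piRNA genes (95.8%) are on IV. Their positions on WS220 were not used here, so the domains are taken as given and no peak was placed at a piRNA gene, a protein-coding gene, an exon or an intron. No sequence is shown for the same reason.

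Within each list the peak number is taken as the order of the peaks, and number 1 is read as the strongest. All peaks that share the top score come first by number, 1737 in the combined list, 2353 in replicate 1 and 990 in replicate 2. The score cannot order these tied peaks, which include the first 2299 of replicate 1. Below the tie the score falls in steps, and within a step it can rise with the number. Combined numbers 1744 and 1830, for example, score 3.068 and 3.089. Strong and strongest therefore mean a low peak number here, whose relation to binding strength was not tested. The deposited files give no read numbers, so the depth of the libraries is unknown. With 2 libraries, an exact permutation test over paired samples cannot go below p = 0.5 (two-sided), so no test was made. The 95% intervals are exact binomial ones (Clopper-Pearson). Counting error is all that they cover, and they take each peak as independent of its neighbours.

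The right domain held fewer strong NHR-2 peaks per Mb than the rest of IV, and the left domain differed little from it. In the combined list the density was 17.6 peaks per Mb in the left domain and 11.9 in the right, against 19.6 in the rest of IV. The ratio to the rest was 0.90 for the left domain (95% interval 0.64 to 1.25) and 0.61 for the right (0.43 to 0.84). As a share of the combined peaks on IV, each domain held 14.2% (10.5 to 18.6%). This is close to the left domain's share of the length, and below the right domain's share of 21.2%.

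Each library showed the same order by itself. The strongest 2299 peaks of a replicate, as many as the combined list holds, were used for this. In replicate 1 they gave 17.2 peaks per Mb in the left domain and 12.4 in the right, against 19.5 in the rest of IV. In replicate 2 they gave 17.6 and 13.8 peaks per Mb, against 20.7 in the rest. The right domain's ratio averaged 0.65 ± 0.02 (SD, n = 2) and the left domain's 0.87 ± 0.02 (SD, n = 2). Both means lie further below 1 than the spread between the 2 libraries, but that spread may be technical only. The right domain's counting interval lies below 1 in each of the 3 lists, whereas the left domain's includes 1 in each. The 3 stretches that make up the rest were alike in the combined list, though not in the whole replicate lists given below. The combined list had 20.4 peaks per Mb in the 4.5 Mb left of the left domain and 18.9 between the domains. In the last 292 kb of the chromosome it had 20.5, on 6 peaks only. The strongest peaks of replicate 1 gave 18.4, 20.3 and 17.1 in these stretches. Those of replicate 2 gave 21.1, 20.0 and 30.8, the last on 9 peaks.

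**Figure D1:**
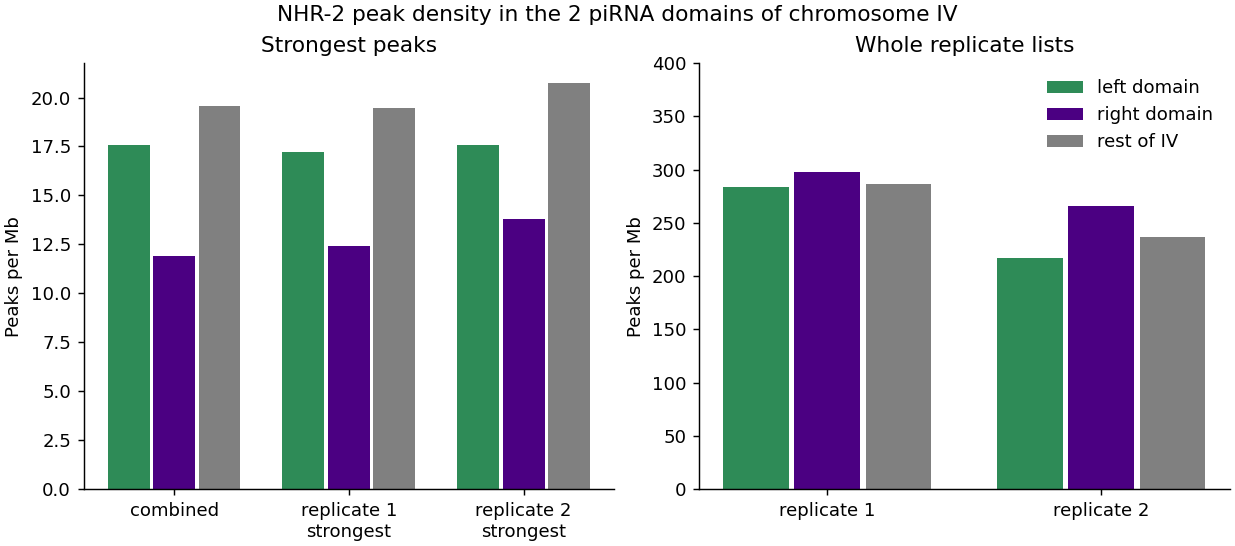
Bars give NHR-2 peaks per Mb (y axis from 0) in the left domain, the right domain and the rest of IV, for the combined list and the strongest 2299 peaks of each replicate (left panel) and for the whole replicate lists (right panel). Among the strong peaks the right domain is lowest in all 3 lists, at 11.9 to 13.8 peaks per Mb, and in both whole lists, at 297.3 and 266.2, it is above the rest as a whole, whose 2 end stretches are denser than it.

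Over the whole replicate lists, most of whose peaks are weak, the right domain was not sparse against the rest as a whole. Replicate 1 had 283.6 peaks per Mb in the left domain and 297.3 in the right, against 286.6 in the rest of IV. Replicate 2 had 217.2 and 266.2, against 236.3 in the rest. Relative to the rest, the right domain stood at 1.04 (0.97 to 1.11) by the list of replicate 1 and at 1.13 (1.05 to 1.21) by that of replicate 2. The left domain stood at 0.99 (0.91 to 1.07) and 0.92 (0.84 to 1.01). The rest was itself uneven here, so these ratios depend on pooling it. Replicate 1 had 322.4 peaks per Mb left of the left domain, 257.4 between the domains and 383.3 at the right end, and replicate 2 had 289.3, 195.8 and 318.3. The right domain was thus denser than the stretch between the domains and less dense than both end stretches in each library. Called peaks covered 10.8% of the left and 11.3% of the right domain in replicate 1, against 10.9% of the rest, and 9.65% and 11.7% in replicate 2, against 10.3% of the rest.

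Split by peak number, the right domain was below the rest in every bin up to number 5000 in both libraries, with wide intervals. In replicate 1 the ratio to the rest was 0.73 at peak numbers 1 to 500 (0.34 to 1.43), on 11 peaks of the domain. It was 0.44 at 501 to 1000 (0.17 to 0.97), on 7 peaks, 0.68 at 1001 to 2299 (0.44 to 1.04) and 0.73 at 2300 to 5000 (0.55 to 0.96). In replicate 2 it was 0.84 at 1 to 500 (0.42 to 1.59) and 0.97 at 501 to 1000 (0.51 to 1.77), then 0.50 at 1001 to 2299 (0.31 to 0.78) and 0.96 at 2300 to 5000 (0.75 to 1.22). The interval lay wholly below 1 for the bins of 501 to 1000 and of 2300 to 5000 in replicate 1, and for that of 1001 to 2299 in replicate 2. At 5001 to 10000 the libraries differed, with a ratio of 0.97 (0.82 to 1.16) in replicate 1 and 1.29 (1.10 to 1.51) in replicate 2. Beyond number 10000 the right domain was denser than the rest, by a factor of 1.13 (1.04 to 1.23) in replicate 1 and of 1.17 (1.06 to 1.28) in the other library. The left domain held only 4 of the first 500 peaks of replicate 1, a ratio of 0.39 (0.10 to 1.08), but 9 of those of replicate 2, a ratio of 0.86 (0.37 to 1.79).

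**Figure D2:**
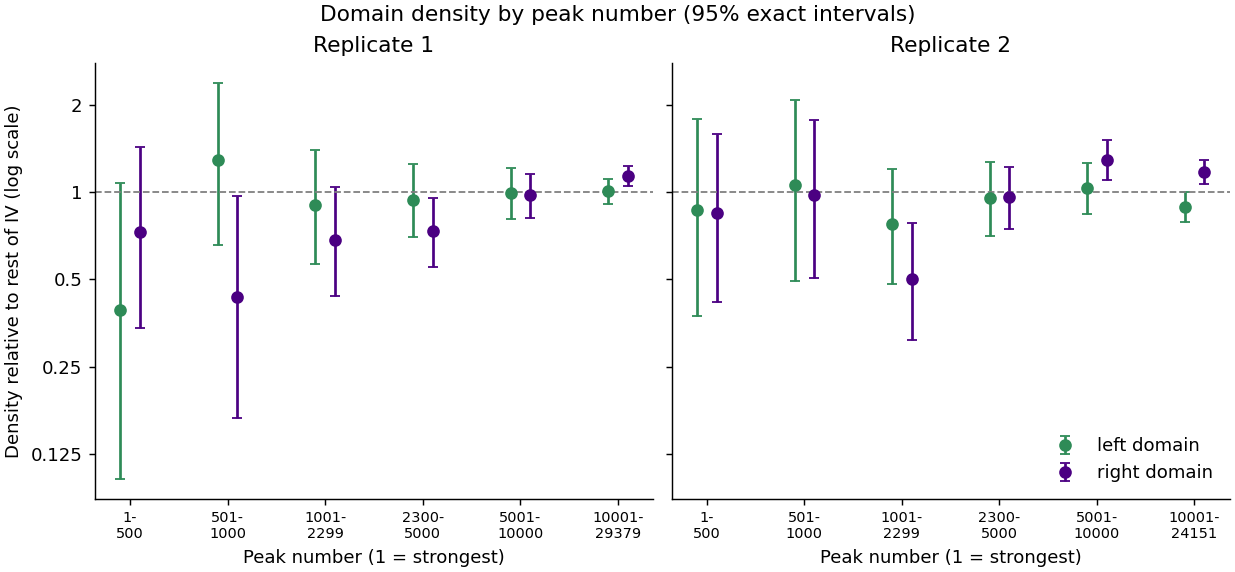
Points give the density of each domain relative to the rest of IV (log axis, dashed line at 1) for bins of the peak number, with number 1 the strongest, in replicate 1 and replicate 2; bars are 95% exact binomial intervals. The right domain lies at 0.44 to 0.73 up to number 5000 in replicate 1, has its low point of 0.50 at 1001 to 2299 in replicate 2, and lies above 1 beyond number 10000 in both.

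The same relative position on other chromosomes was also sparse on some of them, a comparison chosen after the densities of IV had been seen. The right domain spans 77.2 to 98.3% of the length of IV. On chromosome V that stretch held 6.78 combined peaks per Mb against 17.5 in the rest of V, a ratio of 0.39 that is lower than the 0.61 of IV. The ratio was 0.77 on I and 0.74 on III, and the stretch was close to the rest on X (0.93) and on II (1.004). The strongest peaks of replicates 1 and 2 gave 0.38 and 0.50 on V, 0.71 and 0.69 on I, and 0.64 and 0.96 on III, beside 0.64 and 0.67 on IV. They gave 0.92 and 0.91 on X, and 1.07 and 1.19 on II, where the stretch was denser than the rest. A ratio below 0.8 in all 3 lists was thus measured on IV, on V and on I, and V and I are not known for a piRNA domain. Over the whole lists of replicates 1 and 2 the same stretch stood at 1.17 and 1.41 on II, 1.14 and 1.22 on III, and 1.05 and 1.09 on X. It stood at 0.96 and 1.10 on V and at 0.91 and 1.02 on I, beside 1.04 and 1.13 on IV. A ratio above 1 over the whole lists was thus not particular to IV. Position on the chromosome and membership of the domain cannot be told apart on IV.

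Strong peaks were spread unevenly inside both domains. In bins of 500 kb the left domain held 4, 8, 17, 7 and 8 combined peaks from its start to its end. The bin from 5.5 to 6 Mb was the densest, and it had 18 of the strongest peaks of replicate 1 and 17 of those of replicate 2. The bin from 4.5 to 5 Mb was the thinnest, with 4 combined peaks and 3 in each replicate. The right domain held 9, 7, 3, 3, 4, 15 and 1 combined peaks in its 7 full bins, and 2 more in its last 200 kb. Its stretch from 14.5 to 16 Mb carried 10 peaks in 1.5 Mb, or 6.67 per Mb. The bin from 16 to 16.5 Mb held 15 peaks in all 3 lists, and its neighbour from 16.5 to 17 Mb held 1 combined peak, 2 in replicate 1 and 3 in replicate 2. Bins with 4 or fewer combined peaks numbered 1 of 5 in the left domain and 4 of 7 in the right, against 1 of 22 in the rest of IV. The contrast was smaller in the replicates, with 1 of 5 and 3 of 7 against 4 of 22 in replicate 1, and 1 of 5 and 3 of 7 against 1 of 22 in replicate 2. The replicates differed in the bin from 14.5 to 15 Mb, with 2 strong peaks in replicate 1 and 8 in replicate 2.

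**Figure D3:**
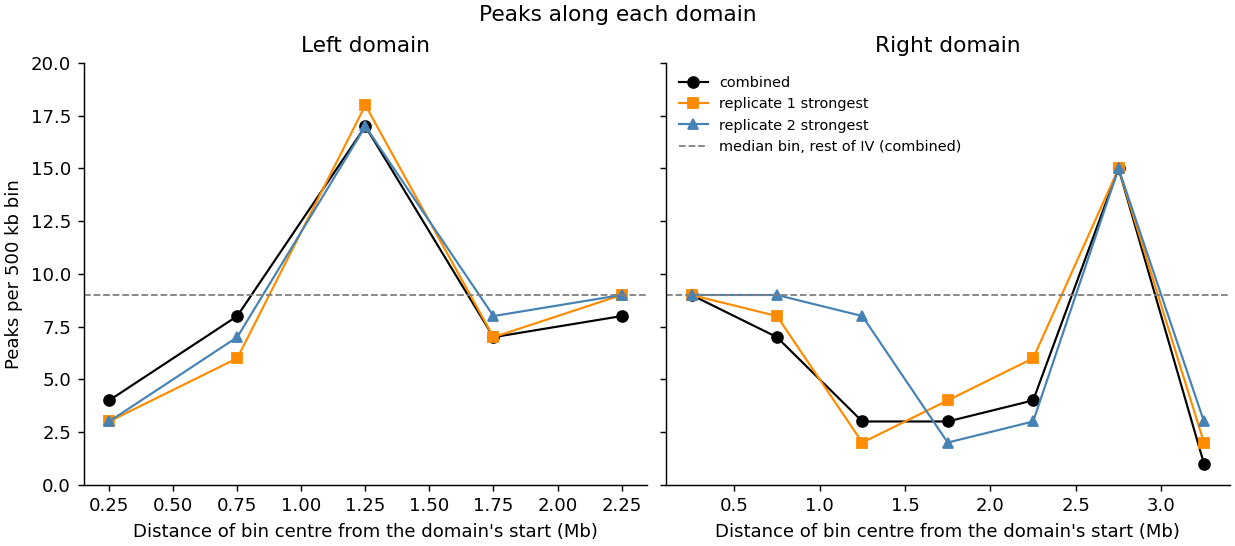
Points give the number of peaks per 500 kb bin (y axis) by distance of the bin's centre from the start of the left and of the right domain (x axis, Mb), for the combined list and the strongest 2299 peaks of each replicate; the dashed line is the median combined bin in the rest of IV, 9 peaks. In the right domain 4 of 7 combined bins hold 4 peaks or fewer, and 1 bin holds 15 in every list.

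Empty stretches, here at least 100 kb from the end of one peak to the start of the next, took up most of the right domain. In the combined list they covered 57.7% of the left domain and 83.0% of the right, against 56.3% of the rest of IV. With the strongest peaks of replicate 1 the shares were 72.9% and 82.3%, against 59.6% of the rest, and with those of replicate 2 they were 59.1% and 70.9%, against 52.0%. The right domain had the largest share in each list, while the left domain exceeded the rest by over 10 percentage points in replicate 1 only. The number of such stretches per Mb was nearly equal, at 3.60 in the left domain and 3.24 in the right, against 3.37 in the rest, so the stretches of the right domain were longer. Of the 10 longest stretches of IV in the combined list, 1 had its middle in the left domain and 6 in the right, against 3 in the rest. With replicate 1 the counts were 1 in the left domain and 5 in the right, against 4 in the rest. With replicate 2 they were 1 and 4, against 5 in the rest, which is larger than either domain.

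**Figure D4:**
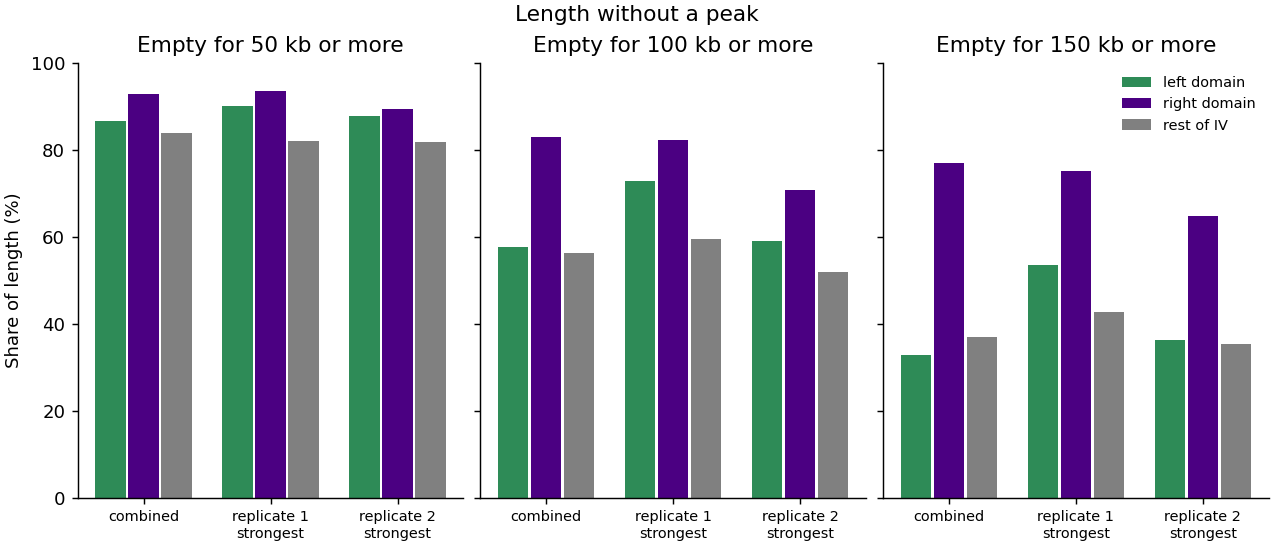
Bars give the share of length (y axis, %) that lies in stretches without a peak of at least 50, 100 or 150 kb, for the left domain, the right domain and the rest of IV, in the combined list and the strongest 2299 peaks of each replicate. At 100 kb the right domain stands at 70.9 to 83.0% and the rest at 52.0 to 59.6%.

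The longest empty stretch of the chromosome lay in the right domain, from 16506194 to 17087364, over 581.2 kb. With the strongest peaks of replicate 1 it ran on to 17249651, past the domain's edge, over 743.5 kb. In replicate 2, 2 strong peaks lay inside it, the stronger one at number 1736, and the longest empty stretch was another one of the right domain, from 14959911 to 15472130 over 512.2 kb. The next in the right domain in the combined list were 357.8 kb from 15648537 to 16006328 and 357.6 kb from 16024443 to 16382015, the third and the fourth longest of IV. In the left domain the longest was 295.1 kb from 4781402 to 5076502, the ninth of IV, followed by 186.8 kb from 5184105 to 5370879 and 186.7 kb from 6134987 to 6321655. The rest of IV reached 374.6 kb.

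None of these stretches was free of weak peaks. The stretch of 581.2 kb held 145 replicate 1 peaks, 249.5 per Mb, whose median number was 19152, and 160 replicate 2 peaks, 275.3 per Mb, with a median number of 14062. The strongest replicate 1 peak in it had number 2470. In the whole lists no stretch of 100 kb without a peak was found in either domain or in the rest of IV. In replicate 1 the longest stretch without any called peak in the right domain was 54.6 kb, against 60.7 kb in the rest of IV. In replicate 2 the longest in the left domain was 59.5 kb, against 59.2 kb in the rest. Stretches of 50 kb or more numbered 3 in the left domain in replicate 2 (6.64% of its length) and 0 in the right, against 2 in the rest (1.02%). In replicate 1 they numbered 0 in the left domain and 1 in the right (1.48%), against 2 in the rest (0.99%).

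Where strong peaks were found, they ranked like those of the rest of IV in the combined list. The median combined number was 1048 in the left domain (723 to 1479) and 1119 in the right (754 to 1429), against 1126 in the rest (1015 to 1318) and 1150 in the whole list. Among the strongest 2299 peaks of replicate 1 the right domain's median was 1404.5 (969 to 1725), against 1150.5 in the rest (971 to 1356). In replicate 2 it was 949 (761 to 1465), against 1199 (1107 to 1368). The right domain thus departed from the rest in opposite directions in the 2 libraries, with intervals that overlap in both. The counts of the very strongest peaks are small. Peak numbers 1 to 100 occurred 0 times in the left domain and 3 times in the right, against 11 times among 221 peaks in the rest. Numbers 1 to 500 made up 5 of 44 peaks (11.4%) in the left domain and 12 of 44 (27.3%) in the right, against 47 of 221 (21.3%) in the rest. Among the strongest 2299 peaks of replicate 1, the strongest 25% of them included 5 of 43 in the left domain and 11 of 46 in the right, against 50 of 220 (22.7%) in the rest. In replicate 2 they included 11 of 44 and 13 of 51, against 57 of 234 (24.4%) in the rest, so the low share of the left domain was not seen there. In each domain 34 of 44 peaks (77.3%, 62.2 to 88.5%) had the top score, 3.54, against 74.2% in the rest of IV and 75.6% in the whole list. In the whole replicate lists the right domain leaned toward weak peaks. Its median number was 16453 in replicate 1 (15538 to 17437), against 15147 in the rest of IV (14498 to 15753), and 12937 in replicate 2 (12266 to 13584), against 12338 (11923 to 12868), with intervals that overlap in both. The left domain's medians were 15331 and 12165.

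The 8 strongest combined peaks of the right domain fell into 4 places. The first, at 13945149 to 13945573, was number 47, matched by number 83 in replicate 1 and number 26 in replicate 2. At 13704059 to 13719372 lay peaks 52, 72 and 170, matched by numbers 70, 64 and 148 in replicate 1 and by 48, 90 and 185 in replicate 2. The strongest of them spans 13716745 to 13717101 and its neighbour 13718990 to 13719372. Peaks 134 and 173, at 16410192 to 16410582 and 16391506 to 16391792, had numbers 156 and 135 in replicate 1 and 124 and 280 in replicate 2. Peaks 237 and 273, at 16024259 to 16024442 and 16006329 to 16006546, had numbers 336 and 376 in replicate 1 and 194 and 231 in replicate 2. The last pair stands between 2 of the long empty stretches. All 8 had the top score of each of the 3 lists and were 184 to 425 bp wide.

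The strongest peak of the left domain, at 6134679 to 6134986, was number 110, with number 100 in replicate 1 and number 137 in replicate 2. The next was number 317 at 5502704 to 5502931, with numbers 253 and 538, which shared a cluster with number 409 at 5501571 to 5501757 (numbers 567 and 332). Number 363 at 5600400 to 5600529 had numbers 343 and 446, and number 517 at 5523523 to 5523682 had 678 and 367. The bin from 5.5 to 6 Mb thus held 4 of the 8. Number 365 at 6983818 to 6983965 had numbers 473 and 318, number 540 at 6096977 to 6097426 had 606 and 573, and number 553 at 4781157 to 4781401 had 713 and 441. These 8 also had the top score of all 3 lists and were 130 to 450 bp wide.

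The outermost peaks inside stood closer to the edges in the left domain than in the right. The last peak inside the left domain was number 1536 at 6988316 to 6988765, 11.5 kb before the edge at 7 Mb. Just outside, 17.3 kb beyond that edge, lay number 147 at 7017129 to 7017476, stronger than all but the first peak of the domain. Number 8, the strongest peak of the rest of IV, followed at 7022949 to 7023352. At the edge of 4.5 Mb the nearest peaks were number 2256, 13.6 kb inside, and number 807, 54.1 kb outside. The nearest combined peaks to the edge of 13.5 Mb were number 392, 196.2 kb inside, and number 357, 105.1 kb outside. At 17.2 Mb they were number 1551, 96.3 kb inside, and number 786, 49.9 kb outside.

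Clusters, with lone peaks counted among them, were fewer per Mb in the right domain. Clusters of 3 or more held a share of the peaks like that of the rest of IV. Combined peaks with centres at most 10 kb apart were joined to clusters, and each lone peak counted as a cluster. This gave 29 clusters in the left domain and 24 in the right, against 134 in the rest of IV. That is 11.6 and 6.49 clusters per Mb, against 11.9 in the rest, most of them lone peaks in each part. Clusters of 3 or more peaks held 15 of 44 peaks (34.1%) in the left domain, in 4 clusters, and 16 of 44 (36.4%) in the right, in 2 clusters, against 82 of 221 (37.1%) in the rest. Peaks that stood alone numbered 21 of 44 (47.7%) in the left domain and 16 of 44 (36.4%) in the right, against 87 of 221 (39.4%) in the rest. The larger of the 2 clusters of 3 or more in the right domain held 10 peaks over 33.5 kb, from 16382016 to 16415469. Its combined numbers ran from 134 to 2216, with a median of 642. The other held 6 peaks over 23.2 kb, from 13696124 to 13719372, with numbers 52 to 1561. Together they hold 5 of the 8 strongest peaks of the domain. In the left domain the largest held 6 peaks over 8.12 kb, from 5500139 to 5508256, and the 3 others had 3 peaks each, the first of them at 5076503 to 5079311. Another combined peak lay within 2 kb of 34.1% of the left domain's peaks and of 22.7% of the right's, against 32.1% in the rest.

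Every combined peak of both domains overlapped a peak of each replicate by at least 1 bp. Of these, 28 of 44 in the left domain (63.6%) and 32 of 44 in the right (72.7%) were matched within the strongest 2299 of both replicates, against 142 of 221 (64.3%) in the rest of IV. The matched peak had the lower number, so the higher place, in replicate 2 for 25 of 44 peaks of the left domain and 30 of 44 of the right, against 115 of 221 in the rest. Its median number in the right domain was 1368 in replicate 1 and 921 in replicate 2. A partner beyond number 5000 was found for 1 peak of the left domain and 1 of the right in replicate 1, against 6 of 221 in the rest, and for 2 and 0 in replicate 2, against 19 of 221 in the rest. The extreme case was combined peak 1777 at 14767654 to 14768103, which had number 761 in replicate 2 and number 29374 of 29379 in replicate 1. The 3 others were in the left domain, with combined numbers 1424, 2093 and 2256.

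**Figure D5:**
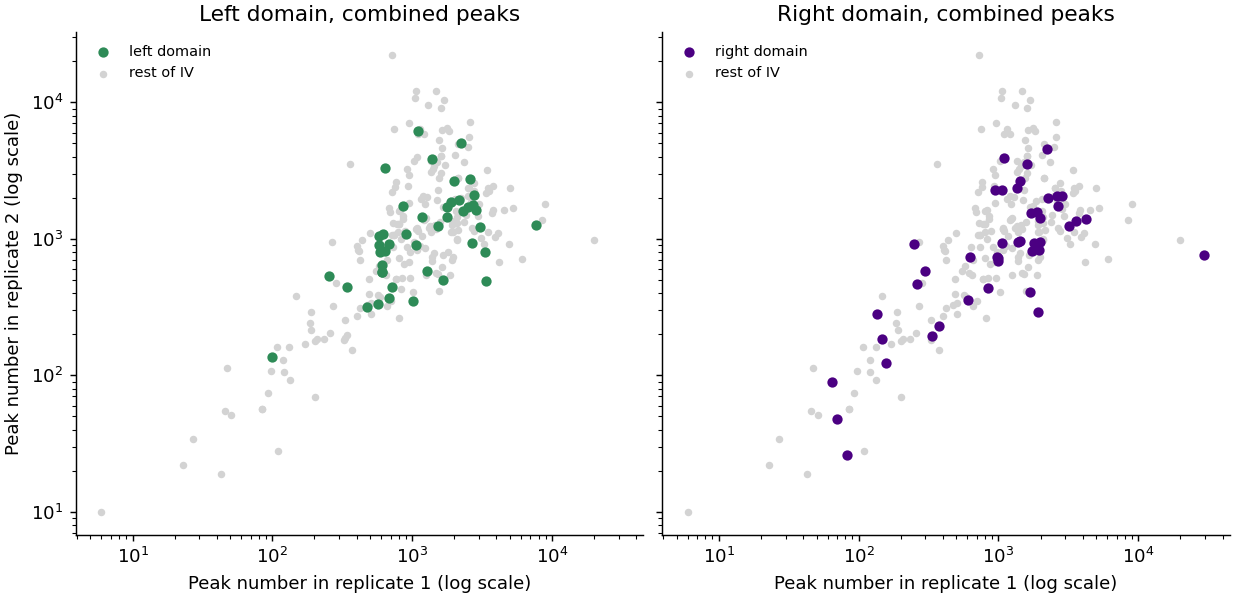
Each point is a combined peak, placed by the lowest peak number of an overlapping peak in replicate 1 (x, log axis) and replicate 2 (y, log axis), for the left domain (left panel) and the right domain (right panel) over the rest of IV in grey. Coloured points lie within the grey cloud, except for the peak of the right domain at number 29374 in replicate 1 and 761 in replicate 2.

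Over the whole lists, which are mostly weak peaks, the replicates overlapped less in the left domain than in the rest of IV. Of the replicate 1 peaks, 238 of 709 (33.6%, 30.1 to 37.2%) in the left domain and 449 of 1100 (40.8%, 37.9 to 43.8%) in the right overlapped a replicate 2 peak. This compares with 42.0% (40.3 to 43.7%) in the rest of IV and 42.3% in the whole list. Of the replicate 2 peaks, 243 of 543 (44.8%, 40.5 to 49.0%) in the left domain and 451 of 985 (45.8%, 42.6 to 49.0%) in the right overlapped a replicate 1 peak, against 51.7% (49.8 to 53.6%) in the rest and 51.9% in the whole list. The left domain's interval lay below that of the rest in both directions, and the right domain's in the second only. The left domain was also less covered by replicate 2 peaks (9.65% of its length) than the rest (10.3%). The part of this coverage in the lower overlap was not tested.

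Among strong peaks the picture depended on which peaks were set against each other. Any replicate 2 peak was overlapped by 35 of the 43 strongest replicate 1 peaks in the left domain (81.4%, 66.6 to 91.6%) and by 42 of 46 in the right (91.3%, 79.2 to 97.6%), against 91.8% (87.4 to 95.1%) in the rest of IV and 93.1% (92.0 to 94.1%) in the whole list. The left domain's interval lay just below that of the whole list and overlapped that of the rest. In the other direction the shares were 42 of 44 (95.5%) and 47 of 51 (92.2%), against 95.3% in the rest. Between the strongest peaks of both lists no difference was detectable with so few peaks. Of the strongest replicate 1 peaks, 28 of 43 (65.1%) in the left domain and 32 of 46 (69.6%) in the right overlapped one of the strongest of replicate 2, against 65.5% in the rest of IV and 65% in the whole list. In the other direction 26 of 44 (59.1%) and 33 of 51 (64.7%) did, against 65.0% in the rest and 66% in the whole list. The combined list kept 33 of the 43 strongest replicate 1 peaks of the left domain (76.7%, 61.4 to 88.2%) and 37 of the 46 of the right (80.4%, 66.1 to 90.6%), against 82.3% in the rest and 82.9% in the whole list. For replicate 2 it kept 36 of 44 (81.8%, 67.3 to 91.8%) and 40 of 51 (78.4%, 64.7 to 88.7%), against 76.1% in the rest and 78.5% in the whole list. Of all replicate 1 peaks, the combined list overlapped 50 of 709 (7.05%) in the left domain and 53 of 1100 (4.82%) in the right, against 8.07% in the rest and 9.28% in the whole list. Of all replicate 2 peaks it overlapped 50 of 543 (9.21%) and 55 of 985 (5.58%), against 10.6% in the rest and 11.7% in the whole list. The combined list comes from these libraries and is no independent repeat.

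The strongest peaks that the combined list left out had no partner in the other library or one beyond number 2299. In replicate 1 the first was number 1046 at 5970501 to 5970900 in the left domain and number 1584 at 16503749 to 16504148 in the right, and neither overlapped a replicate 2 peak. Numbers 1944 at 6987012 to 6987411 and 1657 at 15984164 to 15984563 had no partner either. Number 1359 at 6984358 to 6984757 was matched by number 2590 in replicate 2, and number 1739 at 14032913 to 14033312 by number 4903. In replicate 2 the first was number 1216 at 6117640 to 6118109 in the left domain, matched by number 20012 in replicate 1, and number 992 at 14390512 to 14390981 in the right, matched by number 14189. Numbers 1576 at 5860785 to 5861254 and 1465 at 14636326 to 14636795 had no partner, and number 1628 at 6810157 to 6810626 was matched by number 15373. Number 1736 at 16863515 to 16863984 in the right domain was matched by number 3202 in replicate 1, and it lies inside the stretch of 581.2 kb that is empty in the combined list.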

How the data were processed

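Peak lists of 2 ChIP libraries and 1 combined list of the series were used; the 2 input libraries have no values here. Each peak's score is the authors' deposited value, of unstated scale, compared within a list only. Per the file headers, positions are on WormBase WS220, and the deposited source column names SPP with the irreproducible discovery rate. Not given in the sources used here are the aligner, versions, thresholds and how the combined list was made; depth is unknown. The authors' peak numbers and positions gave densities, ranks, empty stretches, clusters and overlaps, tested on simulated data first, with Python 3.11.15, numpy 2.4.6, pandas 2.3.3 and scipy 1.17.1. The length of IV is that to its last deposited peak. Empty stretches were found on the whole chromosome and clipped to a domain. Named were, per domain, the 8 combined peaks of lowest number, 3 empty stretches, 2 clusters, 3 peaks per replicate outside the combined list, and the edge peaks. Domains and measures were chosen with earlier results of these data known. The gene table is of another build, so peaks were given no genes.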

Additional observations from a re-analysis of the deposited data

Results flagged for a closer look

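Over the whole replicate lists, the left domain was below the rest of IV in both libraries, at ratios of 0.99 in replicate 1 and 0.92 in replicate 2, and the right domain was above it in both, at 1.04 and 1.13. The domains thus lay on opposite sides of the pooled rest in every library. Set against its single stretches they lay on the same side. Both were denser than the stretch between the domains and less dense than both end stretches, in each library. At the same relative positions, the whole list of replicate 2 also had left below and right above the rest on I (0.89 and 1.02), V (0.88 and 1.10) and X (0.93 and 1.09). On II and III both positions were above the rest in that list. In replicate 1 the 2 positions lay on the same side of the rest on each of the other chromosomes. The difference between the domains was not tested, and the replicate 1 intervals of both, 0.91 to 1.07 and 0.97 to 1.11, include 1. No group has the 4 samples that a check for a sample far from the others needs.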

How the results depend on the processing

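For the 12 results, 38 of 58 alternatives kept the value within its interval or, for empty stretches, within the spread of the replicates. The right domain's density ratio turned round over the whole lists of replicate 1 (1.04) and replicate 2 (1.13), which add weak peaks by construction. In its 10 other alternatives it ranged from 0.47, with the cluster of most peaks left out, to 0.69, with the thinnest 500 kb bin left out, and each interval stayed below 1; these 2 were chosen after seeing the data. Over the same 10 the left domain's ratio ranged from 0.78 to 1.02, and each interval included 1. To leave out a replicate, the strongest 2299 peaks of the other took the place of the combined list. This gave density ratios of 0.85 to 0.88 for the left and 0.64 to 0.67 for the right domain, median numbers of 1081 to 1094 and 949 to 1405, and shares in empty stretches of 59.1 to 72.9% and 70.9 to 82.3%. Shares in empty stretches were 86.6% (left) and 93.0% (right) from 50 kb, 32.9% (left) from 150 kb, and 88.3% and 91.8% in the stronger 50% of the combined list. The share of replicate 1 peaks overlapping replicate 2 was 23.7% and 28.4% with a reciprocal overlap of 50%, 24.3% and 29.1% with centres within 200 bp, and 65.1% and 69.6% among the strongest peaks. With whole lists the combined list kept 7.05% (left) and 4.82% (right) of replicate 1 peaks and 9.21% and 5.58% of replicate 2 peaks, and a reciprocal overlap of 50% kept 54.9% of the strongest right domain peaks of replicate 2. Apart from added peaks, the cause was not tested. No paired analysis was possible because input libraries enter with no values. With depth unknown, a missing peak cannot be called unbound.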
